A study of Mus musculus with 36 samples.

Results

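The livers of 6 mice fed a high-fat diet with bilberry were compared with those of 6 mice fed the same high-fat diet without a berry. The arrays were taken by the diet in their titles, 12 of the 36 arrays of the study. The bilberry mice ate, for 13 weeks, food that drew 45% of energy from fat and held 20% by weight of freeze-dried bilberries, while the high-fat mice ate food with 45% of energy from fat and no berry for as long. The other diets drew 10% of energy from fat (low fat, 6 arrays) or were the high-fat diet with 20% lingonberry, blackcurrant or açai (18 arrays in all). All mice were male and 20 weeks old, of the strain C57BL/6J in the sample labels and C57BL/6JBomTac in the series design. Total RNA from whole liver was hybridised to Illumina MouseWG-6 v2.0 beadchips, 1 liver per array. Each of the 6 chips carried 1 array of every diet, and chip entered each fit as a block unless stated otherwise. A diet always lay at the same position of its chip, so an effect of position and one of diet cannot be told apart. P-values rest on the spread between arrays that is left after diet and chip, pooled over all diets.

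Cholesterol is built in hepatocytes from acetyl-CoA through mevalonate, farnesyl diphosphate, squalene and lanosterol. The genes of this pathway are switched on together by the transcription factor SREBP2, which INSIG proteins hold back in the endoplasmic reticulum when sterols are plentiful and which SCAP escorts to the Golgi when they are scarce. The liver also turns cholesterol into bile acids, conjugates these with taurine, releases glucose during fasting and secretes acute phase proteins under the drive of inflammatory cytokines. Hepatocytes answer growth hormone through STAT5, whose targets include Cish, an inhibitor of cytokine receptor signalling, and Bcl6, a transcriptional repressor.

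The promoters of 6 genes are shown because the results below turn on them: 4 encode enzymes of the lanosterol end of the cholesterol pathway and were higher on bilberry under every processing tried, Cish had the largest rise and Cxcl1 a large fall. Each window runs from 250 bases before to 50 after the gene's start and comes from RefSeq (build GRCm38.p6). Capitals mark CCAAT, the box bound by NF-Y, in the cholesterol genes. They also mark any exact match to TCACNCCAC, a spelling of the sterol response element, of which there was none. In Cish they mark the STAT motif TTCNNNGAA, and in Cxcl1 the NF-κB motif, which is GGG and TTCC with any 3 bases between, and of which a pair of matches overlap. All motifs were searched on both strands, so CCAAT also appears as its complement. The windows lie at chr5:4104648-4104947 (minus strand) for Cyp51, chrX:72918271-72918570 (plus strand) for Nsdhl, chr8:64733529-64733828 (minus strand) for Msmo1, chr10:76531355-76531654 (plus strand) for Lss, chr9:107296409-107296708 (plus strand) for Cish and chr5:90890995-90891294 (plus strand) for Cxcl1.
Cyp51: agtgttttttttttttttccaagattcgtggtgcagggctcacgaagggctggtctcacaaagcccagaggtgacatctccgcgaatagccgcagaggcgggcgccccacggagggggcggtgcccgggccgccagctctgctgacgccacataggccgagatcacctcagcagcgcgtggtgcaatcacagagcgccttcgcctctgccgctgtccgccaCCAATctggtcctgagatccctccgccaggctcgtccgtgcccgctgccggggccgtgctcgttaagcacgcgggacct
Nsdhl: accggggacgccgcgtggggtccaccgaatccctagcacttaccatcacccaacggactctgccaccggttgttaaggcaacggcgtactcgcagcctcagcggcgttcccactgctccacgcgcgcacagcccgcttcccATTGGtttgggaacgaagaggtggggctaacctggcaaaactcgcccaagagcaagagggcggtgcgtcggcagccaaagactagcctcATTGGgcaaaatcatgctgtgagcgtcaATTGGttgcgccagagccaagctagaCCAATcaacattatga
Msmo1: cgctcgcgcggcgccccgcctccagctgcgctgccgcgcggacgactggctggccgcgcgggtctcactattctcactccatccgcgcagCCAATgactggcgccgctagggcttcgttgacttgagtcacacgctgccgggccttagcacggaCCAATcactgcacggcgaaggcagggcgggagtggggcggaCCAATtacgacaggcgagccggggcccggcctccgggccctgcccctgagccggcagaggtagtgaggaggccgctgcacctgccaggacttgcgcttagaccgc
Lss: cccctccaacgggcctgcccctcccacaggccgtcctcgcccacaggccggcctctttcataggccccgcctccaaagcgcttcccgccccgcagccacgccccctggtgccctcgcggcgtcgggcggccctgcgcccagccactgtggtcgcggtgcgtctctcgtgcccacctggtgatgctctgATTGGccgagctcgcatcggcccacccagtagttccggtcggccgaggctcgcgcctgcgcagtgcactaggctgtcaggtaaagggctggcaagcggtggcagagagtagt
Cish: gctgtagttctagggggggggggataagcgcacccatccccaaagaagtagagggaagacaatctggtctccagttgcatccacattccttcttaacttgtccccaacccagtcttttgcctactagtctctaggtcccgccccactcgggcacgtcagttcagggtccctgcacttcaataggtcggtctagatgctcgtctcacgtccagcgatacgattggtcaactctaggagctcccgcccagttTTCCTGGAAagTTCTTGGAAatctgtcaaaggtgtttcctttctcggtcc
Cxcl1: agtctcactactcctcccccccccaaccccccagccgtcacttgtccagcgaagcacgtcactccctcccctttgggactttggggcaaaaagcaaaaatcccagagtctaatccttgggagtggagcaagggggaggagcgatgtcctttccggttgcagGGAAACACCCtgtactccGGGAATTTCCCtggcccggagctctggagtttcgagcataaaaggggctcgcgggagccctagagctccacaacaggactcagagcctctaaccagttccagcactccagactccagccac

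Of the 14 cholesterol synthesis genes tested, 12 matched a promoter in the RefSeq table, and all 12 held at least 1 CCAAT box within these windows, against 41.1% of all 27025 genes. None of the 12 held the exact letters TCACNCCAC, which stood in 1.44% of all genes. Variants of these letters were not searched, so a missing match does not show that a sterol response element is absent. The STAT motif stood in Cish and in 9.55% of all genes, and the NF-κB motif in Cxcl1 and in 6.31% of all genes. Among the 7 of the 15 largest rises that lie outside cholesterol synthesis, 6 held a CCAAT box, 1 the STAT motif (Cish) and 2 the NF-κB motif (Abcd3 and Csad). Among the 12 matched genes of the 15 largest falls, 4 held a CCAAT box, 2 the STAT motif (Bcl6 and Tsc22d3) and 2 the NF-κB motif (Bcl6 and Cxcl1). A match is a description of these letters and not a binding site.

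Between 14240 and 15670 of 45281 probes were detected per array over the 36 arrays. Hepatocyte markers had mean log2 levels of 11.38 to 11.64 in the 6 bilberry livers and 11.35 to 11.70 in the 6 high-fat livers, and 0 of their 10 tested genes were called. A pair of arrays stood apart, both on chip 2. Bilberry replicate 2 had a mean level of 8.47 over 12 pancreatic acinar transcripts, against 5.52 to 5.69 in the other bilberry livers and 5.50 to 5.71 in the high-fat livers. High-fat replicate 2 had a mean of 7.48 over 4 markers of recruited macrophages, against 6.05 to 6.18 in the other high-fat livers, and of 6.97 over 8 stellate cell and matrix genes, against 6.4 to 6.54. Counts are therefore also given without these arrays.

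Bilberry changed 109 of 17907 tested probes relative to high fat (0.609%; limma, Benjamini-Hochberg adjusted p under 0.05), 52 higher (0.29%) and 57 lower (0.318%). An unadjusted p under 0.05 was reached by 1782 probes. The called probes named 82 genes, 40 higher and 42 lower, while 19 called probes had no gene name. The difference had 1 sign on all 6 chips for 93 of the 109 probes and on 5 chips for 16. The levels of the 6 bilberry livers lay wholly outside those of the 6 high-fat livers for 58 of the called probes. Over all tested probes they lay wholly above in 81 (0.452%) and wholly below in 71 (0.396%). The called probes were picked by a difference between these same arrays, so the counts of signs and ranges are a description and no further evidence. Only 31 called probes differed by more than 1 on the log2 scale, and the median difference over all genes was -0.01.

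**Figure D1:**
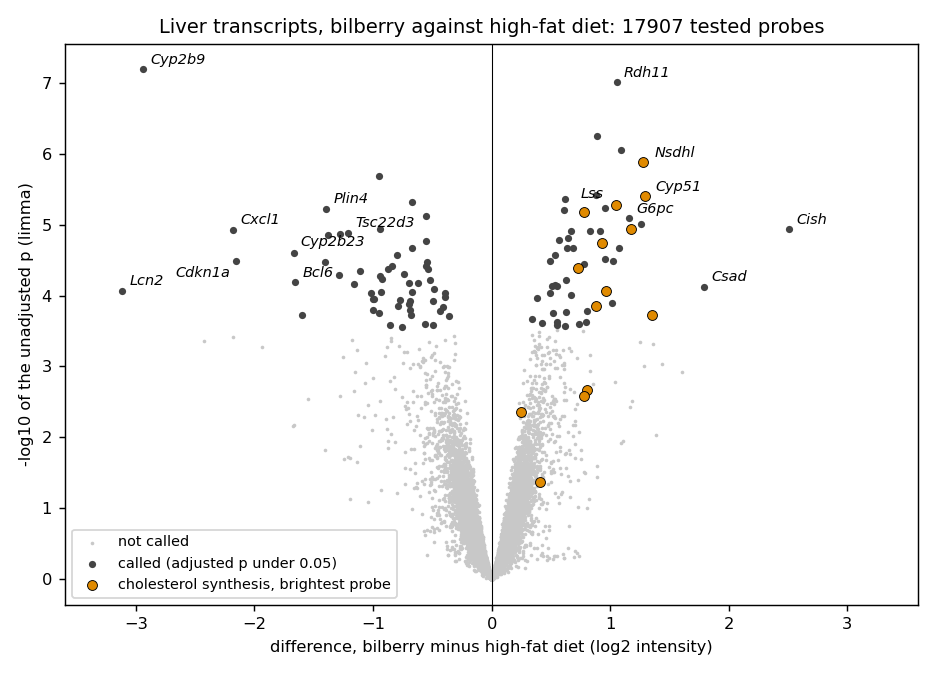
All 17907 tested probes, with the log2 difference bilberry minus high fat on the horizontal axis and -log10 of the unadjusted limma p on the vertical axis (6 livers per diet). Dark points are the 109 called probes, and orange points the 14 cholesterol synthesis genes, which all lie right of 0.

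The count of called probes depended on single livers. It was 45 without high-fat replicate 2, 54 without high-fat replicate 5, 63 without bilberry replicate 2 and 70 without bilberry replicate 6. Without chip 2 of both diets it was 19, and without the 6 arrays of the study rich in pancreatic transcripts 50, both settings chosen after seeing the data. Without the chip block it was 68.

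Genes of cholesterol synthesis rose together on bilberry. Of 21 genes listed, 14 were tested, 10 rose and none fell, against 0.331% of all named genes called higher at their brightest probe and 0.389% called lower. Of all 10281 named genes, 4999 differences were positive and 5282 negative. These shares are the background for the counts of every list below that compare bilberry with high fat. The median log2 difference of the 14 genes was 0.91, and all 14 differences were positive. In 9 of the 14 every bilberry liver lay above every high-fat liver, a separation seen in 0.452% of all probes. The mean log2 level over the 14 genes was 8.98 to 9.28 in bilberry livers and 7.90 to 8.64 in high-fat livers, so the groups did not overlap. In bulk liver, fewer cells of a type and less RNA per cell cannot be told apart. The count of genes that rose was 6 without high-fat replicate 2, 6 without high-fat replicate 4, 5 without chip 2 of both diets and 5 without the 6 arrays rich in pancreatic transcripts.

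In the early, mevalonate part of the pathway, Pmvk (phosphomevalonate kinase) had log2 levels of 7.41, 7.79 and 8.29 as the lowest, median and highest in bilberry livers, against 6.58, 6.89 and 7.18 in high-fat livers. Its groups did not overlap, and the difference was 0.93 ± 0.18 (SE, n = 6 livers per diet, as for every difference here; limma adjusted p = 0.0102). Fdps, which makes farnesyl diphosphate, ran from 11.91 over 12.15 to 12.34 in bilberry livers, against 10.88, 11.03 and 11.62 in high-fat livers (0.97 ± 0.21, adjusted p = 0.0224). Mvd, the mevalonate diphosphate decarboxylase, and Idi1, the isopentenyl diphosphate isomerase, were not called. Mvd differed by 0.81 ± 0.24 (adjusted p = 0.139) and Idi1 by 0.78 ± 0.24 (adjusted p = 0.155). For each of these 2 genes the highest high-fat liver reached into the bilberry range, although the sign was positive on all 6 chips.

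Squalene epoxidase, encoded by Sqle and a control point of the sterol branch, had log2 levels of 9.09, 9.36 and 9.78 in bilberry livers, against 7.04, 7.92 and 8.98 in high-fat livers. The bilberry livers were tightly grouped and all above the high-fat livers, which spread over nearly 2 log2 units. The difference was 1.35 ± 0.32 (adjusted p = 0.0352), the largest of the pathway, but it lost its call in 9 of the 12 fits that leave out 1 liver. Lss, which closes the ring of lanosterol, had 8.32, 8.49 and 8.65 in bilberry livers, against 6.98, 7.33 and 7.93 in high-fat livers. That difference of 1.05 ± 0.19 (adjusted p = 0.00788) was called in every fit run. Dimmer probes of Sqle (1.25, adjusted p = 0.0637), Lss (0.01, adjusted p = 0.993) and Fdps (0.53, adjusted p = 0.162) were not called.

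The enzymes that strip and reduce lanosterol rose as a block. Cyp51, the lanosterol demethylase, had 8.78, 9.26 and 9.63 in bilberry livers, against 7.39, 7.71 and 8.79 in high-fat livers. Only the lowest bilberry liver fell within the high-fat range, and the difference was 1.29 ± 0.23 (adjusted p = 0.00788). Msmo1, the methylsterol monooxygenase, had 11.28, 11.44 and 11.74 in bilberry livers, against 9.82, 10.13 and 10.91 in high-fat livers (1.17 ± 0.23, adjusted p = 0.00884). Nsdhl, the sterol dehydrogenase that acts after Msmo1, had 8.33, 8.66 and 8.70 in bilberry livers, against 6.70, 7.18 and 8.14 in high-fat livers (1.28 ± 0.21, adjusted p = 0.00477). Its groups did not overlap, and all 4 probes of Nsdhl were called, with differences of 1.07 to 1.28. Tm7sf2, a sterol reductase, rose by 0.78 ± 0.14 (adjusted p = 0.00788) and Hsd17b7, the keto reductase of demethylation, by 0.73 ± 0.15 (adjusted p = 0.0148). At the end of the pathway Dhcr7, the last reductase before cholesterol, rose by 0.88 ± 0.20 (adjusted p = 0.0292). Of the 12 fits that leave out 1 liver, Dhcr7 lost its call in 8, Fdps in 6 and Hsd17b7 in 2. Ebp, a sterol isomerase, differed by 0.25 ± 0.08 (adjusted p = 0.201) and Sc5d, a sterol desaturase, by 0.41 ± 0.19 (adjusted p = 0.471), and neither was called.

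**Figure D2:**
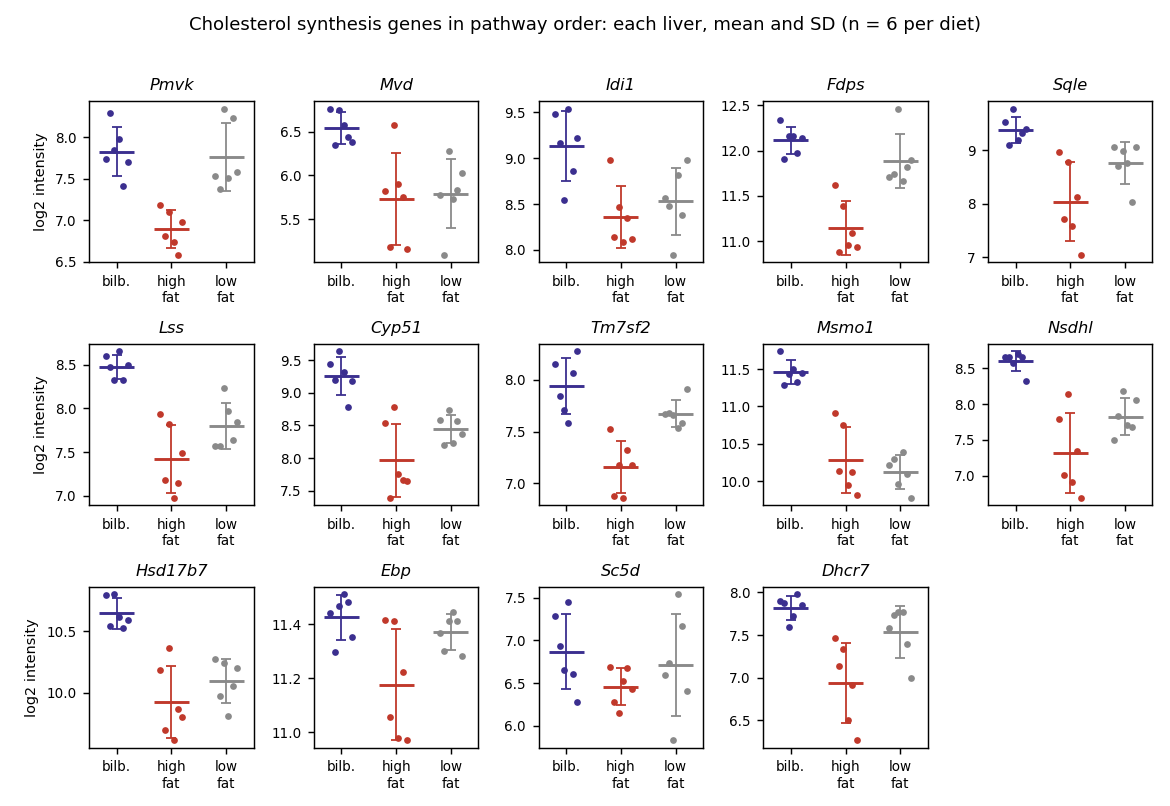
Log2 intensity of the 14 tested cholesterol synthesis genes in each liver on bilberry, high fat and low fat (points, 6 per diet), with the mean (line) and SD (bars), in pathway order. Bilberry livers stand above all high-fat livers for 9 genes, and for Msmo1 the low-fat livers lie near the high-fat livers.

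The rise was seen in part against the low-fat diet too. Of the 14 genes 5 were called higher on bilberry than on low fat and none lower, against 2.07% and 1.23% of all named genes (519 probes, 2.9%, were called in this comparison), with a median difference of 0.58. Msmo1 stood 1.33 ± 0.23 above low fat (adjusted p = 0.000416) and Cyp51 0.81 ± 0.23 (adjusted p = 0.0494). Pmvk, in contrast, differed from low fat by only 0.07 ± 0.18 (adjusted p = 0.913) and Fdps by 0.23 ± 0.21 (adjusted p = 0.67). The comparisons with high fat and with low fat share the bilberry arrays.

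Genes that bring in sterols or steer SREBP moved less. Of 12 tested genes 1 rose, Stard4, whose product carries sterols between membranes. Stard4 had log2 levels of 8.55, 8.84 and 9.05 in bilberry livers, against 7.82, 8.06 and 8.17 in high-fat livers, with no overlap (0.78 ± 0.16, adjusted p = 0.014). The median of the 12 genes was 0.15. Tmem97, a sterol-responsive membrane protein, differed by 0.42 ± 0.11 (adjusted p = 0.0758), Scap by 0.31 ± 0.15 (adjusted p = 0.474) and Srebf2, the gene of SREBP2 itself, by 0.24 ± 0.14 (adjusted p = 0.608). Insig2 (-0.21 ± 0.17), the lysosomal acid lipase gene Lipa (0.17 ± 0.13), the protease gene Mbtps1 (0.10 ± 0.12), the sterol sensors' partners Erlin1 (0.05 ± 0.10) and Erlin2 (0.13 ± 0.10) and the lysosomal sterol exporters Npc1 (0.01 ± 0.10) and Npc2 (-0.05 ± 0.10) were not called.

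The 3 probes of Insig1 disagreed. Its brightest, which stands for the gene in the list above, differed by 0.18 ± 0.11 (adjusted p = 0.631) and another by 0.49 (adjusted p = 0.181). The third had log2 levels of 7.91, 8.17 and 8.67 in bilberry livers, against 6.93, 7.31 and 7.79 in high-fat livers. These groups did not overlap, and the probe was called in every fit run (0.88 ± 0.16, adjusted p = 0.00788). Which transcripts the probes detect was not tested.

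Around sterol and acetyl-CoA metabolism, Acss2, which makes acetyl-CoA from acetate in the cytosol, had 10.86, 11.11 and 11.29 in bilberry livers, against 9.80, 10.14 and 10.52 in high-fat livers. The groups were apart, with a difference of 0.91 ± 0.18 (adjusted p = 0.00884). The dimmer probe of Acss2 gave 0.37 (adjusted p = 0.349) and was not called. Acss2 was the 1 gene called among the 25 tested that were listed for fatty acid and triglyceride synthesis, whose median was 0.07. Gpat3, an acyltransferase of triglyceride synthesis given below, was called lower but was not in that list. The largest difference of that list was in Lpin1, which encodes a phosphatidate phosphatase. Lpin1 was lower in every bilberry liver (5.25 to 6.96) than in any high-fat liver (7.10 to 7.89) without passing the test (-1.24 ± 0.51, adjusted p = 0.37). None of 9 targets of the sterol receptor LXR was called, with Abca1, the cholesterol exporter, at -0.31 ± 0.10 (adjusted p = 0.206).

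Of 20 bile acid genes 1 rose. Cyp8b1, the sterol hydroxylase that sets the share of cholic acid, had 12.48, 12.65 and 12.74 in bilberry livers, against 11.54, 11.86 and 12.34 in high-fat livers (0.74 ± 0.18, adjusted p = 0.0435). It kept its call in 1 of the 12 fits that leave out 1 liver. Cyp7a1, the rate-limiting enzyme of bile acid synthesis, differed by 1.61 ± 0.45 with no overlap between the groups (10.08 to 10.75 in bilberry livers and 7.08 to 9.50 in high-fat livers), but it did not pass the test (adjusted p = 0.0995). Against low fat Cyp7a1 was higher on bilberry by 3.07 ± 0.45 (adjusted p = 5.94e-05). The low-fat livers were spread widely, at 10.00, 8.85, 8.43, 5.76, 5.57 and 5.01 in replicates 1 to 6. The highest of them thus lay close to the bilberry range. The median of the list was 0.16, and 17 of the 20 differences were positive.

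Csad, the decarboxylase of taurine synthesis, had log2 levels of 8.76, 9.73 and 10.95 in bilberry livers, against 7.11, 8.03 and 9.06 in high-fat livers. The groups overlapped, and the difference of 1.79 ± 0.39 (adjusted p = 0.0205) ran from 0.09 on chip 4 to 3.09 on chip 2. The call was lost in 6 of the 12 fits that leave out 1 liver. The brighter probe of Csad gave 1.44 ± 0.39 (adjusted p = 0.0877) and was not called, and 0 of the 12 genes of taurine and sulfur amino acid metabolism were called at their brightest probe.

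The largest rise was that of Cish. Its log2 levels were 8.10, 9.54, 7.88, 5.78, 9.65 and 9.41 in bilberry replicates 1 to 6, against a lowest of 5.30, a median of 5.91 and a highest of 6.18 in high-fat livers. Bilberry replicate 4 lay within the high-fat range and the other bilberry livers far above it. The difference was 2.51 ± 0.48 (adjusted p = 0.00884), and against low fat it was 2.12 ± 0.48 (adjusted p = 0.00977). Without chip 2 of both diets, and without the 6 arrays rich in pancreatic transcripts, Cish was not called.

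Bcl6 moved the other way. It had 6.88, 7.67 and 9.67 in bilberry livers, against 8.78, 9.61 and 10.10 in high-fat livers (-1.65 ± 0.36, adjusted p = 0.0198). The bilberry liver at 9.67 was replicate 4 again, so the liver with little Cish had the most Bcl6 of its diet. Bcl6 lost its call in 6 of the 12 fits that leave out 1 liver. Of 12 genes of growth hormone and STAT5 signalling 1 rose and 1 fell, Cish and Bcl6, and the median was -0.02. Gadd45g, a growth arrest gene, ran from 7.07 to 11.26 in bilberry livers and from 10.91 to 11.51 in high-fat livers (-1.19 ± 0.64, adjusted p = 0.557).

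Genes that differ between the sexes in mouse liver gave few calls. Of 21 male-biased genes 1 rose, Keg1, by 0.55 ± 0.13 (adjusted p = 0.0437), while 18 of the 21 differences were positive with a median of 0.23. Keg1 lost its call in 10 of the 12 fits that leave out 1 liver. Serpina1e (0.61 ± 0.17, adjusted p = 0.088) and the fatty acid hydroxylase gene Cyp4a12a (0.83 ± 0.23, adjusted p = 0.0974) were not called. Of 7 female-biased genes 2 fell, Cyp2b9 and Ntrk2.

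Cyp2b9, a cytochrome P450 of the family that the xenobiotic receptor CAR controls, had log2 levels of 4.53, 5.04 and 6.09 in bilberry livers, against 5.97, 8.14 and 10.11 in high-fat livers. It was detected in 4 of 6 bilberry livers and all 6 high-fat livers, and only the highest bilberry liver reached the lowest high-fat liver. The difference was -2.94 ± 0.42 (adjusted p = 0.000881), 7.68-fold lower on bilberry, and the sign was negative on all 6 chips. It was called in each of the 23 alternative fits in which it was tested. Low-fat livers lay between 4.26 and 4.45, below detection in all 6.

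Cyp2b23 had 4.26, 4.58 and 4.82 in bilberry livers, against 4.47, 6.26 and 8.19 in high-fat livers (-1.67 ± 0.34, adjusted p = 0.0121). Cyp2b23 lost its call in 4 of the 23 alternative fits in which it was tested. It was detected in 3 bilberry livers and 5 high-fat livers, and probes of such close relatives may share signal, which was not tested. These 2 genes were the only ones called among 24 targets of CAR and PXR, whose median was 0.07. Cyp2b9 is the same gene that was counted among the female-biased genes. Cyp3a11, the main drug-metabolising P450 of the PXR set, stood higher in every bilberry liver (11.18 to 12.15) than in any high-fat liver (10.61 to 11.16) but did not pass the test (0.70 ± 0.21, adjusted p = 0.142). Ntrk2, the receptor of the neurotrophin BDNF, had 4.24, 4.44 and 4.72 in bilberry livers, against 4.59, 5.87 and 6.93 in high-fat livers, and was detected in 1 and 5 of them (-1.28 ± 0.25, adjusted p = 0.00891). The dimmer probe of Ntrk2 gave -0.60 against high fat (adjusted p = 0.0903) and was not called. At the brighter probe Ntrk2 was also lower on bilberry than on low fat, by -1.45 ± 0.25 (adjusted p = 0.000476).

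**Figure D3:**
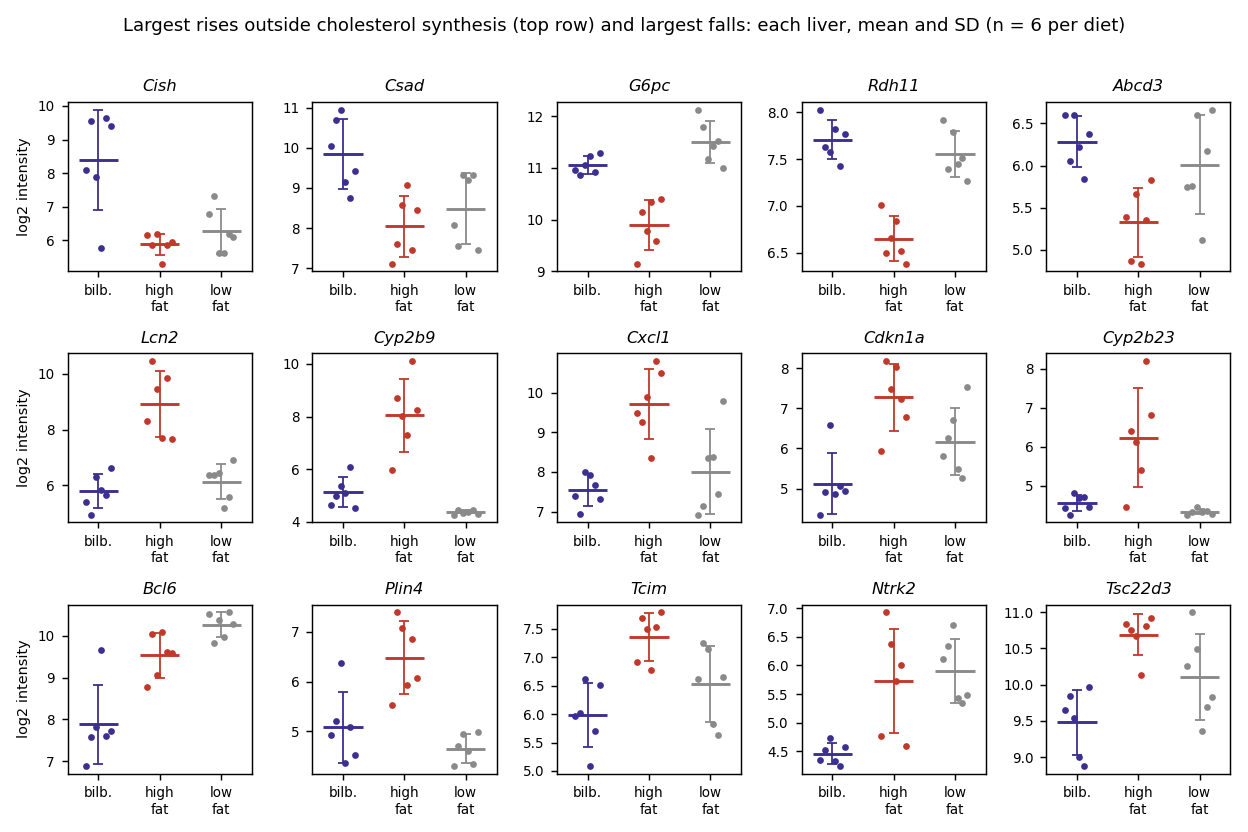
Log2 intensity in each liver on bilberry, high fat and low fat (points, 6 per diet; line, mean; bars, SD) for the 5 largest rises outside cholesterol synthesis (top row) and the 10 largest falls. G6pc, Rdh11, Lcn2, Cxcl1, Tcim and Tsc22d3 show no overlap between bilberry and high-fat livers, nor, narrowly, does Abcd3. The other genes overlap, and 1 bilberry liver of Cish and 1 of Bcl6 stand with the high-fat livers.

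The largest fall was that of Lcn2, which encodes lipocalin 2, a secreted acute phase protein that binds bacterial siderophores. Lcn2 had log2 levels of 4.95, 5.74 and 6.61 in bilberry livers, against 7.66, 8.89 and 10.46 in high-fat livers. The groups did not overlap, and the difference was -3.12 ± 0.69 (adjusted p = 0.0224), 8.66-fold lower on bilberry. The call was lost in 6 of the 12 fits that leave out 1 liver. Serpina3n, a protease inhibitor of the acute phase, had 11.35, 11.57 and 11.74 in bilberry livers, against 11.87, 12.33 and 12.68 in high-fat livers (-0.79 ± 0.18, adjusted p = 0.0297). It lost its call in 8 of those 12 fits.

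These were the 2 that fell of 22 acute phase genes tested. The median of the list was -0.29, 20 of the 22 differences were negative, and in 6 genes every bilberry liver lay below every high-fat liver, which happened in 0.396% of all probes. Saa1, the serum amyloid gene, had 9.78, 10.33 and 10.88 in bilberry livers, against 11.48, 12.85 and 13.15 in high-fat livers, and the difference of -2.18 ± 0.55 did not pass the test (adjusted p = 0.0592). Its dimmer probe gave -1.67 (adjusted p = 0.238). Saa4 differed by -0.85 ± 0.21 (adjusted p = 0.0604). The list mean was 9.74 to 9.96 in bilberry livers and 10.04 to 10.70 in high-fat livers, with no overlap.

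Cxcl1, a chemokine that draws neutrophils, had log2 levels of 6.93, 7.52 and 8.0 in bilberry livers, against 8.36, 9.69 and 10.80 in high-fat livers. All bilberry livers were below all high-fat livers, and the difference was -2.18 ± 0.42 (adjusted p = 0.00884), 4.53-fold lower on bilberry. Cxcl1 was called in all 12 fits that leave out 1 liver, and lost its call only without chip 2 of both diets. Vcam1, an adhesion molecule for leukocytes, fell by 0.76 on the log2 scale (SE 0.18, adjusted p = 0.0464) and was called in 2 of those 12 fits. These were the 2 calls among 25 chemokine and NF-κB response genes, with a median of -0.31. Nfkbia, which NF-κB induces as its own inhibitor, was lower in every bilberry liver (7.16 to 7.72) than in any high-fat liver (7.74 to 8.14) without passing the test (-0.48 ± 0.17, adjusted p = 0.256).

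Markers of immune cells were set beside these falls. Of 5 tested neutrophil markers none was called, and the log2 of their summed intensity ran from 7.76 to 9.59 in bilberry livers and from 8.35 to 9.92 in high-fat livers. Of 11 Kupffer cell markers none was called either, with sums of 11.73 to 11.98 in bilberry livers and 11.33 to 12.13 in high-fat livers. For 4 markers of recruited macrophages the sums ran from 8.82 to 9.30 in bilberry livers and from 8.83 to 10.46 in high-fat livers, the highest being replicate 2. The part of these cells in the falls was not tested.

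Of 19 interferon response genes none was called, although 17 differences were negative with a median of -0.23. Usp18, which removes the ubiquitin-like protein ISG15, was lower in every bilberry liver (6.90 to 7.68) than in any high-fat liver (7.81 to 8.89) at -0.85 ± 0.22 (adjusted p = 0.0633). Outside that list, Ifi27l2b, of an interferon-inducible family, had 4.27, 4.87 and 5.41 in bilberry livers, against 4.88, 5.60 and 7.06 in high-fat livers (-0.99 ± 0.22, adjusted p = 0.0254), and lost its call in 6 of the 12 fits that leave out 1 liver.

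Cdkn1a, the cell cycle inhibitor that p53 induces, had log2 levels of 4.35, 4.93 and 6.58 in bilberry livers, against 5.95, 7.35 and 8.18 in high-fat livers. Bilberry replicate 3 held the highest bilberry level and was the only one above the lowest high-fat liver (-2.15 ± 0.44, adjusted p = 0.0135). Its 2 dimmer probes, at -1.17 and -0.57, were not called. Of the 12 fits that leave out 1 liver, the brightest probe of Cdkn1a lost its call in 2. Tsc22d3, which glucocorticoids induce and which restrains inflammation, had 8.88, 9.6 and 9.97 in bilberry livers, against 10.14, 10.78 and 10.92 in high-fat livers. Its groups were apart, and this probe was called in every fit run (-1.21 ± 0.23, adjusted p = 0.00891). A dimmer probe of Tsc22d3 was called too (-1.11, adjusted p = 0.0155), and its dimmest was not (-0.41, adjusted p = 0.448). Cdkn1a and Tsc22d3 were the 2 called lower among 20 glucocorticoid and p53 response genes, with a median of -0.28. The metallothionein genes Mt1 (-2.42 ± 0.62, adjusted p = 0.0633) and Mt2 (-1.94 ± 0.50, adjusted p = 0.0697) did not pass the test, although for each every bilberry liver was below every high-fat liver.

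In glucose metabolism G6pc, the last enzyme of glucose release, had log2 levels of 10.87, 11.02 and 11.28 in bilberry livers, against 9.14, 9.96 and 10.40 in high-fat livers. The groups did not overlap, and G6pc was called in every fit run (1.16 ± 0.22, adjusted p = 0.00857). Irs2, an insulin receptor substrate that insulin represses, had 5.12, 5.31 and 5.83 in bilberry livers, against 4.48, 4.58 and 4.84 in high-fat livers, and was detected in 6 and 2 of them (0.80 ± 0.19, adjusted p = 0.0421). It kept its call in 2 of the 12 fits that leave out 1 liver. These 2 rose among 16 genes of glucose production and insulin response, with a median of -0.02. Foxo1 (-0.57 ± 0.22, adjusted p = 0.317) and Igfbp2 (0.55 ± 0.20, adjusted p = 0.278) were not called.

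On the glycogen side Ppp1r3b, the liver subunit that brings a phosphatase to glycogen, had 8.01, 8.36 and 9.40 in bilberry livers, against 9.09, 9.40 and 9.91 in high-fat livers (-0.93 ± 0.21, adjusted p = 0.0226). It lost its call in 8 of the 12 fits that leave out 1 liver. Ppp1r3c, a related subunit, was lower in every bilberry liver (9.58 to 10.64) than in any high-fat liver (10.80 to 11.47) and did not pass the test (-1.15 ± 0.32, adjusted p = 0.1). Of 14 genes of glycolysis and glycogen 1 fell, and the median was -0.07.

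Plin4, a coat protein of lipid droplets, had log2 levels of 4.35, 5.0 and 6.37 in bilberry livers, against 5.54, 6.46 and 7.40 in high-fat livers. It was detected in 4 and 6 of them, and the highest bilberry liver lay within the high-fat range (-1.40 ± 0.26, adjusted p = 0.00788). It was the 1 call among 17 lipid droplet and PPARγ target genes, with a median of -0.11. Cidea, which fuses lipid droplets, differed by -1.0 ± 0.29 (adjusted p = 0.114). Pparg itself differed by 0.56 ± 0.19 (adjusted p = 0.23), while its level was 2.21 ± 0.19 above that on low fat (adjusted p = 7.51e-09). None of 23 genes of fatty acid oxidation and PPARα was called, with a median of 0.04.

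The lists of oxidant defence and of the aryl hydrocarbon receptor gave no call. None of 24 NRF2 targets and glutathione genes was called (median 0.07), nor any of 7 genes listed for the aryl hydrocarbon receptor (median -0.02). Cyp1a2, a target of this receptor, differed by 0.15 ± 0.18 (adjusted p = 0.85). Lpin1, given above, was also placed in this list of 7, and whether it answers the receptor was not tested. Of 17 retinoid genes 1 rose, Rdh11, a retinol dehydrogenase of the endoplasmic reticulum. Rdh11 had 7.42, 7.70 and 8.02 in bilberry livers, against 6.39, 6.59 and 7.01 in high-fat livers, at the probe with the smaller p. The groups did not overlap, and the difference ran from 0.90 to 1.38 over the 6 chips (1.05 ± 0.15, adjusted p = 0.000881), and its brighter probe gave 0.95 ± 0.17 (adjusted p = 0.00788).

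The remaining genes with large differences belong to no shared list. Abcd3, a transporter of the peroxisomal membrane, had 5.84, 6.30 and 6.60 in bilberry livers, against 4.84, 5.37 and 5.83 in high-fat livers (0.96 ± 0.20, adjusted p = 0.0135). The 3 brighter probes of Abcd3 gave differences of 0.16 to 0.39 and were not called. Tcim, a regulator of transcription and immune responses, had 5.09, 5.99 and 6.62 in bilberry livers, against 6.77, 7.51 and 7.79 in high-fat livers, with no overlap (-1.38 ± 0.27, adjusted p = 0.00901). St3gal5, which makes the ganglioside GM3, had 5.63, 5.82 and 6.47 in bilberry livers, against 6.66, 6.83 and 7.21 in high-fat livers (-0.95 ± 0.22, adjusted p = 0.0334). Its brighter probe gave -0.83 (adjusted p = 0.208). The other falls were Wfdc2 (-1.16 ± 0.25), a whey acidic protein family member, Thbd (-1.02 ± 0.23), the endothelial thrombin receptor thrombomodulin, and Slc45a3 (-1.0 ± 0.23), a solute carrier. Of the 12 fits that leave out 1 liver, St3gal5 lost its call in 9 and Wfdc2, Thbd and Slc45a3 in 6 each. Ddr1, a collagen receptor, was detected in 5 bilberry livers and no high-fat liver and was at least 1.18-fold higher on bilberry (adjusted p = 0.0431), a call lost in 8 of those 12 fits, while its other tested probe gave -0.13 (adjusted p = 0.752).

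**Figure D4:**
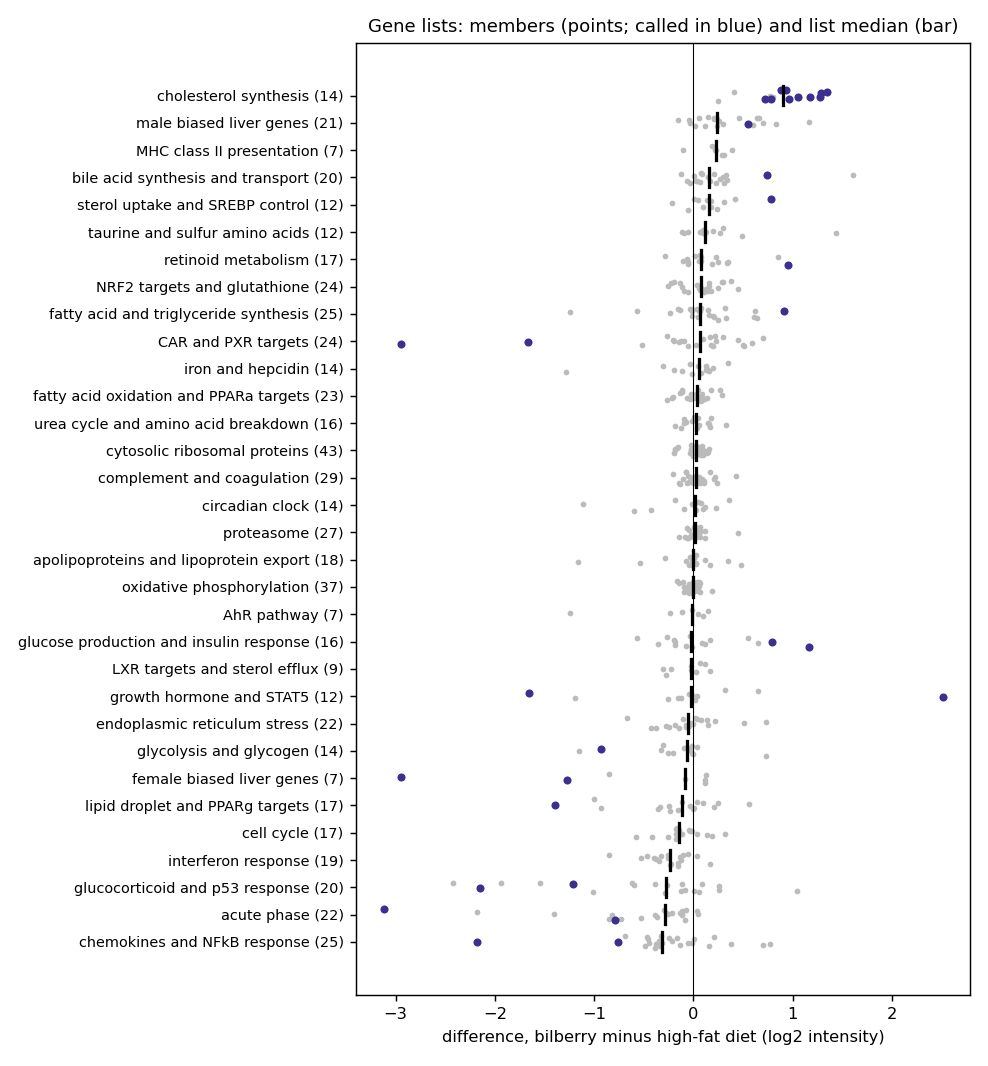
Log2 difference bilberry minus high fat of each tested member (points; called members in blue) and the median (bar) of the gene lists with 7 or more tested genes, with the number tested in parentheses. The cholesterol synthesis list stands highest with a median of 0.91, and the chemokine and acute phase lists stand lowest at -0.31 and -0.29.

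Bilberry was also set against the mean of the lingonberry, blackcurrant and açai diets, which asks what bilberry did beyond berries in general on the same fat. This called 23 probes (0.128%), 12 higher and 11 lower, but none without the chip block, where 1289 probes had an unadjusted p under 0.05. Without bilberry replicate 1, or without bilberry replicate 4, none was called either. Among the cholesterol genes Lss was called, at 0.82 ± 0.16 (adjusted p = 0.0338), the 1 gene of 14, against 0.0681% of all named genes called higher at their brightest probe. The median of the 14 genes was 0.58 and all 14 differences were positive. The mean log2 level over the 14 genes was 9.11 ± 0.10 on bilberry (8.98 to 9.28), against 8.89 ± 0.36 on açai (8.58 to 9.53), 8.36 ± 0.39 on blackcurrant (7.86 to 9.0) and 8.35 ± 0.41 on lingonberry (7.58 to 8.67; SD, n = 6 each). Açai livers thus overlapped the bilberry range, with the highest single value on açai, and no difference from 1 berry alone was tested. The dimmest of the 4 probes of Nsdhl was called too (0.70, adjusted p = 0.0394), and the brightest was not (0.78, adjusted p = 0.0595).

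The other genes higher on bilberry than on the mean of the other berries were Phlda1 (1.42), Pde4b (0.79), a cyclic AMP phosphodiesterase, Acss2 (0.71), Rdh11 (0.67) and Ddr1 (0.41). Chmp4c, at 0.36, was detected in 4 bilberry livers. In this comparison the other probes of Pde4b (0.13, adjusted p = 0.597) and Acss2 (0.37, adjusted p = 0.251) were not called. Nor were those of Ddr1 (-0.05, adjusted p = 0.912) and Chmp4c (0.02, adjusted p = 0.973). Phlda1 had log2 levels of 8.48, 9.46 and 10.29 in bilberry livers, against 7.45, 8.0 and 8.72 in high-fat livers, where the difference did not pass the test (1.36 ± 0.35, adjusted p = 0.0666). Livers on single berries reached the bilberry levels of some of these genes. The highest Phlda1 level was on blackcurrant (10.75). At the probe of Rdh11 with the smaller p it was on açai (8.22, against 8.02 on bilberry). For Acss2 the highest blackcurrant (11.27) and açai (11.14) livers lay within the bilberry range (10.86 to 11.29). Lower on bilberry than on the mean of the other berries were Cdkn1a (-1.72), Cidea (-1.14), Slc45a3 (-0.89), Ifi27l2b (-0.89), Usp18 (-0.83), Uap1l1 (-0.78), Gpat3 (-0.57) and Acot6 (-0.56). The dimmer probes of Cdkn1a (-1.02 and -0.49) and Gpat3 (-0.26) were not called in this comparison. For Cidea, detected in 1 bilberry liver, the mean log2 level was 4.47 on bilberry, against 4.51 on lingonberry, 4.45 on blackcurrant and 7.86 on açai, so açai alone stood above bilberry, and on blackcurrant it was detected in 0 livers. Gpat3, an acyltransferase of triglyceride synthesis, had the smallest adjusted p of these (0.00637). It was lower on bilberry than on high fat as well (-0.54 ± 0.11, adjusted p = 0.0149), though its dimmer probe was not (-0.13, adjusted p = 0.827). The call against high fat was lost in 4 of the 12 fits that leave out 1 liver.

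Several large differences from high fat were small against the other berries. G6pc differed from the other berries by 0.16 (adjusted p = 0.859), Csad by 0.24 (adjusted p = 0.887) and Ntrk2 by -0.21 (adjusted p = 0.824). Cxcl1 differed by -0.74 (adjusted p = 0.49) and Cyp2b9 by -0.94 (adjusted p = 0.333). The 3 other berries were often unlike each other. The mean log2 level of Cyp2b9 was 5.11 on bilberry, against 5.08 on lingonberry, 5.02 on blackcurrant and 8.04 on açai. That of Csad was 9.84 on bilberry, against 10.37 on lingonberry, 8.79 on blackcurrant and 9.64 on açai. For Cxcl1 it was 7.54 on bilberry, against 7.49 on lingonberry, 8.75 on blackcurrant and 8.60 on açai. For Cish the mean log2 level was 8.39 ± 1.49 on bilberry and 8.25 ± 1.5 on blackcurrant, against 6.01 ± 0.46 on lingonberry, 6.41 ± 0.56 on açai and 5.88 ± 0.32 on high fat (SD, n = 6 each). The comparisons with high fat and with the other berries share the bilberry arrays.

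**Figure D5:**
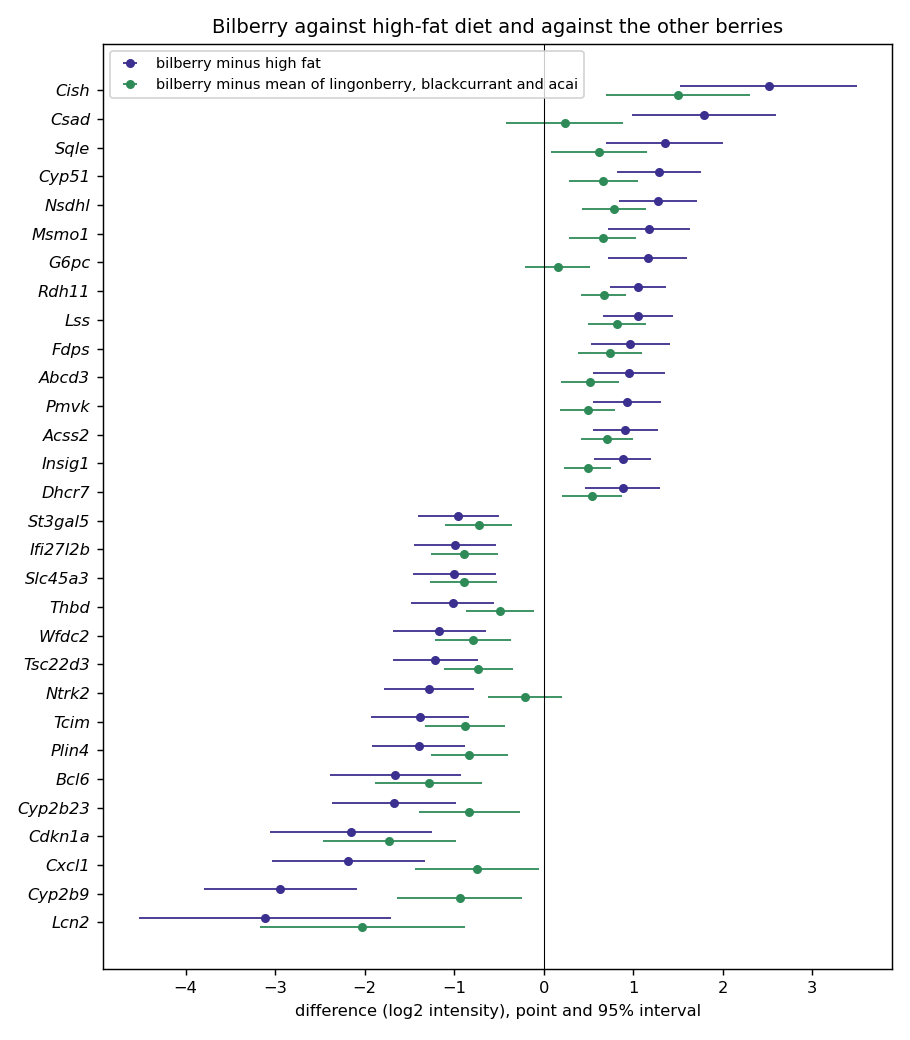
Log2 differences of the 15 largest rises and 15 largest falls, bilberry minus high fat (blue) and bilberry minus the mean of lingonberry, blackcurrant and açai (green), with 95% intervals (6 bilberry and 6 high-fat livers, 18 livers of other berries). The green points of G6pc, Csad and Ntrk2 have intervals that include 0.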

How the data were processed

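Liver RNA of 36 mice was measured on Illumina MouseWG-6 v2.0 beadchips. The raw table deposited by the authors holds an intensity and a detection p-value for each of 45281 probes on every array, with 974 control probes. The intensity has no background subtracted (lowest value 67.6), and the sources used here do not name the software behind the deposited detection p-value. The authors also deposited log2 values, used as an alternative, and these lay within 0.0501 of the values computed here.

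Intensities were background-corrected and quantile normalised with neqc (limma 3.58.1, offset 16, R 4.3.3, data.table in version 1.17.8). Probes with a detection p-value under 0.05 on at least 6 of the 36 arrays were tested (17907). limma was fitted to all 36 arrays with a mean per diet and chip as a block, and the contrasts were bilberry against high fat, against low fat and against the mean of the other 3 berries. P-values are two-sided limma p-values adjusted by Benjamini and Hochberg over all tested probes, and calls are adjusted p under 0.05. The chip comes from the array titles. Same-chip bilberry and high-fat arrays correlated by -0.003, 0.078, 0.41, 0.077, 0.097 and 0.063 in their deviations from the diet means, and chip was kept as a block because the titles give it.

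Gene names are those of the platform annotation, brought up to date with RefSeq (GRCm38.p6). Of the tested probes 15409 named 10281 genes, 6 had several symbols and 2492 had none. Of 16 cholesterol synthesis genes on the array, Mvk and Ggps1 failed the detection filter, and other listed genes are not analysed here. A gene entered its list through its brightest tested probe. Where a diet had no liver above detection, the fold is a bound, at least N-fold. Genes named are the 15 largest rises and 15 largest falls among called probes with the same sign on at least 5 chips, every tested gene of the sterol lists, up to 4 of each other list by smallest p and the 8 largest in each direction against the other berries. Further probes of a named gene were added for a part of the genes where they disagree. The comparison and the lists were chosen with earlier results of these data known. The test was tried on simulated data with independent noise, no chip effect and no outlying livers, unlike the real arrays. Of 50 probes changed by 0.5 on the log2 scale 36 were recovered, and of 50 changed by 1 all 50. Of the unchanged probes 10 were called. This trial does not cover the dependence on single livers. The number of arrays limits the precision. Plots were made in matplotlib 3.10.9 under Python 3.11.15.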

Additional observations from a re-analysis of the deposited data

Results flagged for a closer look

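In 16 of 176 sets of 6 livers (genes named and list means, bilberry and high fat), 1 liver stood far from the other 5, a gap that chance gives in about 1 of 20 sets. Values are log2 levels, and no cause was tested. Bilberry replicate 2 had a mean of 8.47 over the pancreatic transcripts (5.52 to 5.69 in the other bilberry livers). High-fat replicate 2 had 7.48 over the recruited macrophage markers (6.05 to 6.18 in the other high-fat livers) and 6.97 over the stellate and matrix genes (6.4 to 6.54).

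Bilberry replicate 3 was the highest of its diet for Cdkn1a at 6.58 (others 4.35 to 5.07), St3gal5 at 6.47 (5.63 to 5.90), Cidea at 5.30 (4.20 to 4.38) and Gpat3 at 5.81 (4.53 to 4.98). These 4 genes were all lower on bilberry than on high fat, 3 of them called. Bilberry replicate 4 was the highest for Bcl6 at 9.67 (6.88 to 7.81).

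Bilberry replicate 6 was the lowest for Nsdhl at 8.33 (8.57 to 8.70) and for the mean of the LXR targets at 7.92 (8.05 to 8.12), and the highest for the male-biased genes at 11.18 (10.71 to 10.86) and the ribosomal protein genes at 11.58 (11.39 to 11.44). High-fat replicate 6 was likewise the highest of its diet for the ribosomal protein genes at 11.61 (11.32 to 11.43), and these 2 arrays share chip 6. High-fat replicate 6 was also the highest for Pde4b at 5.97 (5.25 to 5.45), high-fat replicate 4 the lowest for Tsc22d3 at 10.14 (10.68 to 10.92) and high-fat replicate 3 the highest for Acot6 at 5.73 (4.86 to 5.16).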

How the results depend on the processing

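Bilberry against high fat called 109 probes, 52 higher and 57 lower, and 10 cholesterol synthesis genes higher. Against the other berries 23 probes were called, and 519 against low fat. With no replicate block (chip left out) the counts were 68, 34 and 34, with 0 against the other berries and 288 against low fat. Fits on only the arrays compared called 268 against low fat. With no filter on dim probes 62 were called, 27 of them lower, and 2 against the other berries. Probes detected on all 36 arrays gave 15 against the other berries, and array weights gave 80 higher and 41 against the other berries. Leaving out each bilberry or high-fat liver in turn gave 45 to 128 called, 25 to 61 higher, 20 to 67 lower, 6 to 11 cholesterol genes, 0 to 44 against the other berries and 326 to 516 against low fat. Without the 6 arrays with high pancreatic transcripts the counts were 50, 27 and 23, with 5 cholesterol genes and 10 against the other berries. Without chip 2 of both diets they were 19, 14 and 5, with 5 cholesterol genes and 5 against the other berries. The last 2 settings were chosen after seeing the data and have fewer arrays. For the others the cause was not tested. In all 24 alternatives Cyp51, Nsdhl, Msmo1, Lss, Tm7sf2, Insig1 (1 of 3 probes), Rdh11, G6pc and Tsc22d3 were called, as was Cyp2b9 in the 23 that tested it. Values of single probes were recomputed for a part of the genes named, not for every called probe. None of the 43 called probes among these changed sign, and of the uncalled genes recomputed Npc1, Npc2 and Erlin1, all near 0, did. With single livers left out Npc1 ran from -0.0628 to 0.0561, Npc2 from -0.101 to 0.00101 and Erlin1 from -0.0213 to 0.115, and Npc1 was -0.0125 without the pancreas-rich arrays and -0.0666 without chip 2. Signal over background limits the dim probes, such as Cyp2b9 and Ntrk2 in bilberry livers.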

Other observations

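Iron, lipoprotein and housekeeping genes gave no call between bilberry and high fat by limma, where 0.609% of all probes were called. Hamp2, a hepcidin gene, differed by -1.28 ± 0.39 from high fat (adjusted p = 0.155) and was lower on bilberry than on low fat by -2.17 (adjusted p = 0.000883). Apoa4, an apolipoprotein of triglyceride-rich particles, had log2 levels of 10.07 to 11.36 in bilberry livers and 10.52 to 12.60 in high-fat livers (-1.16 ± 0.35, adjusted p = 0.141). Apoa5, which aids triglyceride clearance, differed by 0.48 ± 0.13 (adjusted p = 0.0739). Ccnd1, a cyclin of the start of the cell cycle, differed by -0.58 ± 0.16 (adjusted p = 0.0791).

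None of 43 ribosomal protein genes (median 0.03), 37 oxidative phosphorylation genes (median 0.00), 27 proteasome genes (median 0.01), 29 complement and coagulation genes (median 0.02), 16 urea cycle and amino acid genes (median 0.03), 14 clock genes (median 0.02) or 22 endoplasmic reticulum stress genes (median -0.06) was called. All 7 MHC class II genes were uncalled as well, with a median of 0.23 and 6 positive differences. Of 17 cell cycle genes none was called, and 13 differences were negative.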
